A study of Mus musculus with 6 samples.

Results

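Transcripts of 10 genes for vasoactive peptides, the enzymes that process them and their receptors were measured in cultured mouse aortic smooth muscle cells with and without knockdown of Ezh2. The 10 genes were chosen by symbol (Edn1, Ece1, Ednra, Ednrb, Ace, Agtr1a, Npr2, Npr3, Adm and Npy), and all 10 were found among the 27502 genes listed. The 3 siEzh2 samples received short interfering RNA against Ezh2, the methyltransferase of Polycomb repressive complex 2 that places the repressive histone mark H3K27me3. The 3 control samples are labelled as controls of the knockdown, and both groups were taken at 48 hours. The sources used here do not say what the controls were given. They also do not state strain, age, the number of animals or whether samples came from separate cultures. The p-values therefore reflect only how much these samples varied, and that variation may be technical.

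Vasoactive peptides set the tone and growth of the vessel wall through receptors on smooth muscle. Endothelin 1 is made as an inactive precursor that endothelin-converting enzyme cleaves, and it acts on the A receptor, which constricts, and the B receptor, which in smooth muscle constricts and in endothelium also clears the peptide and releases dilators. Angiotensin-converting enzyme makes angiotensin II, which constricts through the type 1 receptor. Natriuretic peptides act through receptors that make cyclic GMP or, at the clearance receptor, are removed, and adrenomedullin dilates vessels through a receptor that raises cyclic AMP. Neuropeptide Y is best known as a constrictor released by sympathetic nerves.

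Levels are FPKM (fragments per kilobase of gene, scaled to library size), which allow genes to be compared per length. Values after ± are SDs over the 3 samples of a group (n = 3). Reads recovered from the steps of these values summed to 16080005 to 18753124 per sample. The knockdown showed in Ezh2 itself, at 3.63 ± 0.237 FPKM in control and 1.11 ± 0.0781 FPKM in siEzh2 cells (adjusted p = 5.15e-05). Acta2, the actin of smooth muscle, stood at 699 ± 14.8 and 537 ± 17.8 FPKM. Myh11, the myosin heavy chain that defines the contractile state, was low (1.83 ± 0.149 and 1.12 ± 0.181 FPKM), and Tagln was under 1 FPKM in every sample. The Tagln value is uncertain, since antisense genes cover 62.4% and 5.43% of its exon bases and the strand setting of the counting is not known.

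Endothelin B receptor and neuropeptide Y transcripts rose, adrenomedullin and endothelin 1 transcripts fell, and smaller shifts were seen in the enzymes and natriuretic peptide receptors. Of the 9 genes above the filter of the test (a mean of at least 1 FPKM in a group), 3 were higher (Ednrb, Npy and Ece1), 5 were lower (Adm, Edn1, Npr3, Ace and Npr2) and Ednra did not pass, by limma with Benjamini-Hochberg adjustment at 0.05. Agtr1a lay just below the filter. Over all 11869 genes tested the same rule called 46.9%, with 24.1% higher and 22.7% lower. Groups did not overlap in 9 of the 10 genes, all but Ednra, against 58.1% of all tested genes. The 9 include Agtr1a, which was not tested, while the 58.1% covers tested genes only. Log2 fold changes below are siEzh2 minus control on log2(FPKM + 1), a scale that understates the changes of low genes.

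**Figure D1:**
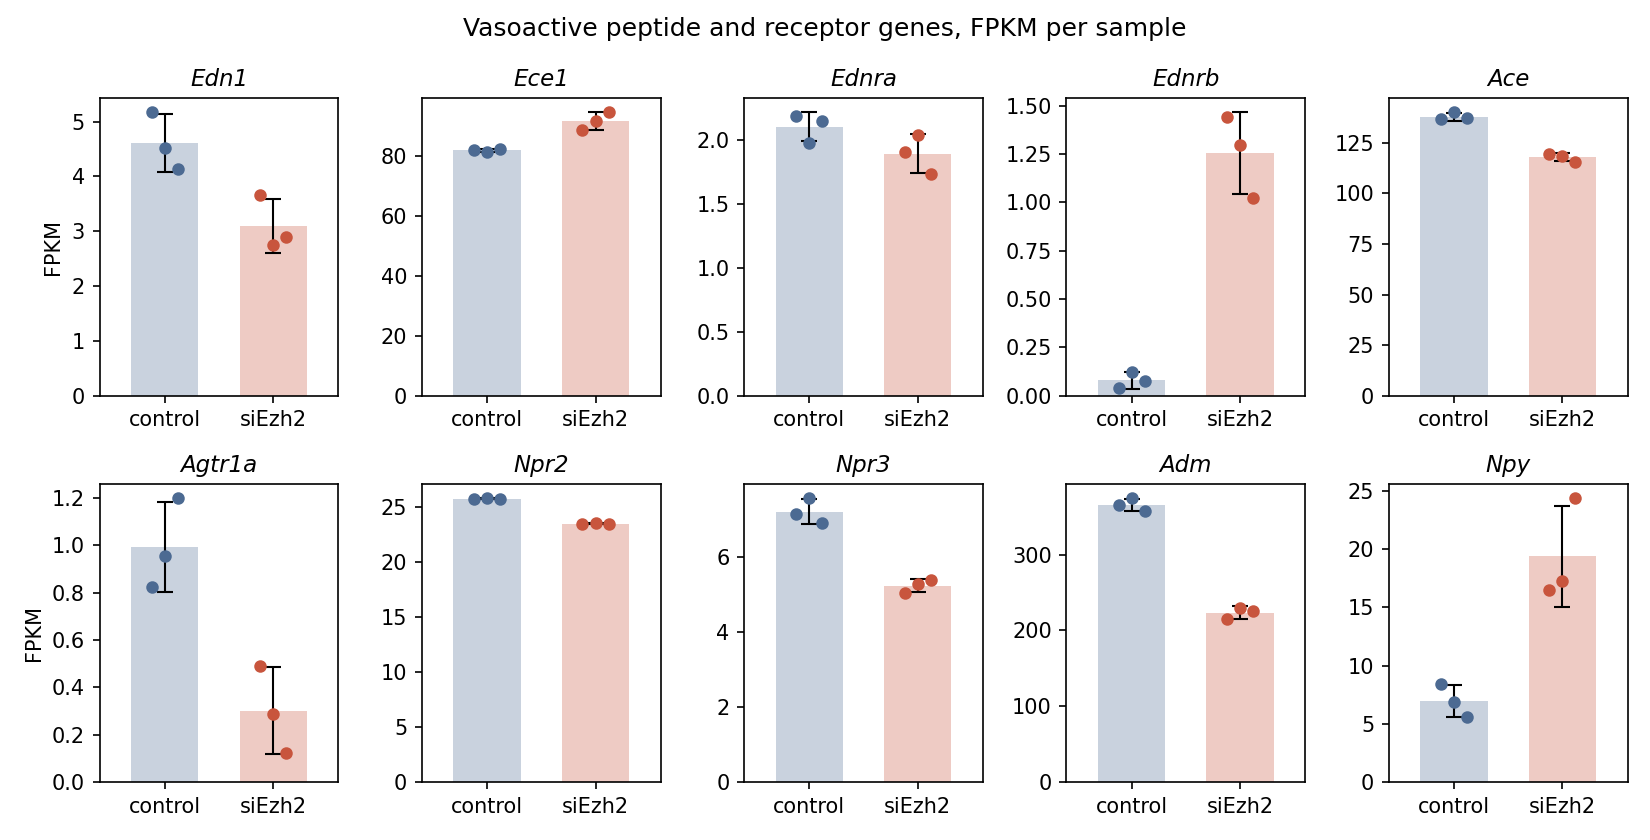
FPKM of each of the 10 genes, 1 panel a gene with its own axis from 0. Points are samples (n = 3 a group), bars are means and error bars are SD. In Ednra the groups overlap, and in the other 9 genes they do not.

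In control samples Adm was the most abundant at 366 FPKM, rank 80 among all tested genes, followed by Ace (138 FPKM), Ece1 (82.0), Npr2 (25.8), Npr3 (7.19), Npy (6.97), Edn1 (4.60), Ednra (2.10), Agtr1a (0.993) and Ednrb (0.0797). Npr3 and Npy overlapped between samples and no other neighbours in this order did. In siEzh2 samples the order kept its first 4 places, with Adm at 224 FPKM and rank 149. Npy came next at 19.4 FPKM and overlapped Npr2, while Ednrb (1.25 FPKM) now lay above Agtr1a (0.300 FPKM).

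Among endothelin genes the B receptor rose from a level near 0, the ligand fell, the converting enzyme rose slightly and the A receptor was not called. Ednrb (ENSMUSG00000022122, chromosome 14 from 103814625 to 103844402, minus strand, mm10) encodes the B receptor. It had 0.0385, 0.125 and 0.0758 FPKM in control samples 1 to 3 and 1.44, 1.29 and 1.02 FPKM in siEzh2 samples 1 to 3. Every siEzh2 sample lay far above every control sample. The means of 0.0797 ± 0.0433 and 1.25 ± 0.212 FPKM differ 15.7 times, and the log2 fold change was 1.06 (SE 0.0753, adjusted p = 0.000183). The control values rest on 3, 10 and 6 reads, and the siEzh2 values on 99, 97 and 76. The gene passed the filter only through the siEzh2 samples, so by passing it had to differ between groups. A filter blind to group, a mean of at least 0.5 FPKM over all 6 samples, cannot alter the fold change, only its SE, p and adjustment. Ednrb passed it through its siEzh2 values, with an adjusted p of 0.000252, where 42.0% of genes were called. On recovered reads limma-voom gave a log2 fold change of 3.98 (95% interval 3.17 to 4.79, adjusted p = 9.59e-10), with 47.0% of genes called.

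Ednra (ENSMUSG00000031616, chromosome 8 from 77663031 to 77724464, minus strand), the A receptor that dominates in contractile smooth muscle, had 2.19, 1.97 and 2.14 FPKM in control and 1.91, 2.04 and 1.73 FPKM in siEzh2 samples. The groups overlapped, since siEzh2 sample 2 lay above control sample 2. Its log2 fold change was −0.10 (95% interval −0.23 to 0.02, adjusted p = 0.156), which does not show that the level was the same. Ednrb made up 1.73% to 5.95% of the summed FPKM of both receptors in control samples and 37.2% to 43.1% in siEzh2 samples. The log2 ratio of Ednrb to Ednra, with 1 FPKM added to each, was −1.52 ± 0.110 in control and −0.36 ± 0.0977 in siEzh2 samples, a difference of 1.16. With 0.1 FPKM added in place of 1 the difference was 3.08, since Ednrb in control samples lies far below 1 FPKM. The exact two-sided permutation test gave p = 0.1, the smallest that 3 against 3 samples allow, and this was 1 of 2 receptor pairs compared.

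The bases just upstream of these receptors, and of the genes with the largest log2 rise (Npy) and the largest log2 fall among those tested (Adm), are shown because Ezh2 acts on chromatin, often at promoters rich in the dinucleotide CG. Each stretch is the 250 bases before the RefSeq start of the gene (GRCm38.p6, the same assembly as mm10), 5′ to 3′ on the strand of the gene, with every CG in capitals. Ednrb lies at chr14:103843702-103843951 on the minus strand, Ednra at chr8:77724453-77724702 on the minus strand, Npy at chr6:49822460-49822709 on the plus strand and Adm at chr7:110627407-110627656 on the plus strand.
Ednrb: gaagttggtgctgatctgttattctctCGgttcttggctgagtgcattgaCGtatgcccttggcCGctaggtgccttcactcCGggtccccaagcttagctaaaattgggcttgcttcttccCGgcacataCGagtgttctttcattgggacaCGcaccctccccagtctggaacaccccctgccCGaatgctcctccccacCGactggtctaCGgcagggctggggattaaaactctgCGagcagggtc
Ednra: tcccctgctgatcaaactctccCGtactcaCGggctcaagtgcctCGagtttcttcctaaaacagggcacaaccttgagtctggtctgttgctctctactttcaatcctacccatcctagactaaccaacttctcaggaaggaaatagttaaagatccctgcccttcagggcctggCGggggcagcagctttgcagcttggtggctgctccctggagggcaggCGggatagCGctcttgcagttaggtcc
Npy: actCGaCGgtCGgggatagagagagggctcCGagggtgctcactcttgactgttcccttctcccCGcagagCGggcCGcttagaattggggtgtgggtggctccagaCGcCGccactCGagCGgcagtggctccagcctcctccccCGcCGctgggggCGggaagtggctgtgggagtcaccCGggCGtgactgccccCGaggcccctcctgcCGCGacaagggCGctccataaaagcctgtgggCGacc
Adm: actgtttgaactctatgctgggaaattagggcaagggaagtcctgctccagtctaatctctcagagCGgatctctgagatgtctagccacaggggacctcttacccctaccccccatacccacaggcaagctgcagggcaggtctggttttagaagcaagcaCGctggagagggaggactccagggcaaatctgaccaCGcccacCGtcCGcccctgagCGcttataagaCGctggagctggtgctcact

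RefSeq sequences were matched for 9 of the 10 genes (all but Agtr1a). CG was counted as the letters CG, which read the same on both strands. At least 1 CG stood in 92.1% of all 32851 such windows, and the median was 6. Among the genes that were higher, Npy held 21 (more than 83.7% of windows) and Ednrb 11 (64.4%). Ece1 held 22, 23, 14 and 5 at its 4 listed starts (85.2%, 86.7%, 70.6% and 44.4%). Among those that were lower, Adm held 7 (53.7%), Edn1 9 (59.7%), Npr2 13 (68.5%) and Npr3 6 (49.6%). Ace held 19 (80.3%) and 1 (7.87%) at its 2 listed starts. Ednra held 6 (49.6%). GENCODE M21 also lists a transcript of Ednrb that starts upstream of the stretch shown. Binding of Polycomb proteins and H3K27me3 were not analysed here.

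Edn1 (ENSMUSG00000021367, chromosome 13 from 42301476 to 42307990, plus strand), the ligand of both receptors, had 5.17, 4.51 and 4.13 FPKM in control and 3.66, 2.74 and 2.90 FPKM in siEzh2 samples. All siEzh2 samples lay below all control samples. The mean fell 1.48 times, from 4.60 ± 0.527 to 3.10 ± 0.492 FPKM (log2 fold change −0.45, SE 0.104, adjusted p = 0.0137). Ece1 (ENSMUSG00000057530, chromosome 4 from 137862237 to 137965229, plus strand), which encodes the converting enzyme, had 81.9, 81.5 and 82.5 FPKM in control and 88.7, 91.6 and 94.6 FPKM in siEzh2 samples. The groups did not overlap, and the rise of 1.12 times was small (log2 fold change 0.16, SE 0.0368, adjusted p = 0.0142). Antisense genes cover 1.64% of the exon bases of Edn1 and 1.66% of those of Ednra. In the wider endothelin list, 2 of 5 tested genes were higher and 2 lower, at a median log2 fold change of −0.10, where the median of all tested genes was 0.01. The only tested gene of that list outside the 10 was Mme (neprilysin, a protease that degrades endothelins and natriuretic peptides), which fell 2.39 times from 5.06 ± 0.213 to 2.11 ± 0.0229 FPKM (adjusted p = 4.02e-05). Endothelin 2 (Edn2) had 6 reads in all control samples together and 0 in all siEzh2 samples together, too few to compare.

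Endothelin genes are also expressed by endothelium, and Ednrb by glia and other cells of neural crest origin. In bulk RNA fewer cells of a type and less RNA per cell cannot be told apart. Of 11 endothelial markers, 8 were under 1 FPKM in every sample. Their summed level was 4.20 to 4.66 FPKM in control and 5.07 to 5.64 in siEzh2 samples, and single markers went both ways. Kdr (1.11 ± 0.0889 to 1.55 ± 0.0555 FPKM) was called higher and Emcn (1.75 ± 0.0254 to 1.28 ± 0.183 FPKM) lower. Below the filter Vwf was 0.417 ± 0.0524 and 0.932 ± 0.109 FPKM, Tek 0.332 ± 0.0815 and 0.857 ± 0.0897 FPKM and Pecam1 0.170 ± 0.0640 and 0.0789 ± 0.0134 FPKM, each without overlap between groups. Cdh5 was 0.223 ± 0.0997 and 0.196 ± 0.0159 FPKM. Of 8 Schwann and glial markers, 6 were under 1 FPKM in every sample, and their sum was lower in siEzh2 (6.40 to 6.93 FPKM) than in control samples (9.41 to 11.4 FPKM). Sox10, which defines that lineage, was 0.454 ± 0.0482 and 0.351 ± 0.140 FPKM, and S100b fell 1.76 times. The part of these markers in the rise of Ednrb was not tested.

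**Figure D2:**
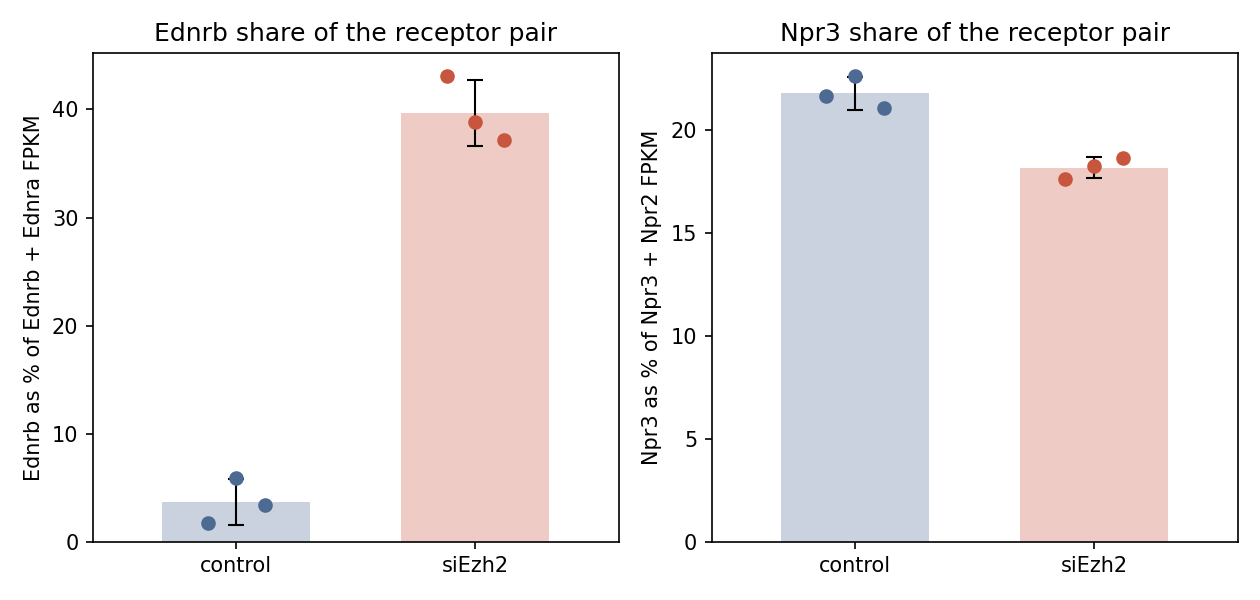
Share of the first-named receptor in the summed FPKM of its pair, in percent, for Ednrb with Ednra (left) and Npr3 with Npr2 (right). Points are samples (n = 3 a group), bars are means and error bars are SD. The Ednrb share lies between 1.73% and 5.95% in control and between 37.2% and 43.1% in siEzh2 samples.

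Both angiotensin genes among the 10 were lower in siEzh2 samples, Ace by the test and Agtr1a in its values. Ace (ENSMUSG00000020681, chromosome 11 from 105967945 to 105989964, plus strand), the converting enzyme, had 137, 140 and 137 FPKM in control and 119, 119 and 116 FPKM in siEzh2 samples. The groups were apart, with little spread within each. Ace fell 1.17 times (log2 fold change −0.23, SE 0.0332, adjusted p = 0.00252), and an antisense gene covers 5.58% of its exon bases. Agtr1a (ENSMUSG00000049115, chromosome 13 from 30336441 to 30382867, plus strand), the main type 1 receptor of rodent vessels, had 0.825, 0.956 and 1.20 FPKM in control and 0.491, 0.286 and 0.124 FPKM in siEzh2 samples. No siEzh2 sample reached the lowest control sample. The means were 0.993 ± 0.189 and 0.300 ± 0.184 FPKM, 3.31 times apart, on 154 reads over the control and 42 over the siEzh2 samples. Agtr1a was not tested under the main filter. With the filter blind to group it passed through its control values (log2 fold change −0.62, adjusted p = 0.00781), where 42.0% of genes were called. On recovered reads limma-voom gave −1.89 (95% interval −2.60 to −1.17, adjusted p = 4.46e-05), with 47.0% of genes called.

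Its close copy Agtr1b, picked after its values were seen, stood at 2.12 ± 0.423 FPKM without and 2.10 ± 0.176 FPKM with the knockdown (95% interval of the log2 fold change −0.25 to 0.24, adjusted p = 0.992). The coding sequences of Agtr1a and Agtr1b are much alike and reads could have been shared out between them, which makes either value alone uncertain. In the renin-angiotensin list 3 of 8 tested genes were higher and 2 lower, at a median log2 fold change of 0.04. Lnpep and Anpep, aminopeptidases that cut angiotensin peptides, rose 1.28 and 1.36 times. Agtrap, which binds the type 1 receptor and draws it into the cell, fell 1.32 times from 22.4 ± 0.652 to 17.0 ± 0.304 FPKM (adjusted p = 0.000575). Agt, the precursor of all angiotensins, had 7.99, 7.80 and 8.20 FPKM in control and 7.89, 6.65 and 7.05 FPKM in siEzh2 samples (adjusted p = 0.109). Without siEzh2 sample 1 it was called lower (adjusted p = 0.0207). Renin (Ren1) had 1 read in siEzh2 sample 2 and 0 in the other 5 samples.

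Both natriuretic peptide receptors among the 10 fell. Npr3 (ENSMUSG00000022206, chromosome 15 from 11839896 to 11907287, minus strand), which removes natriuretic peptides, had 7.14, 7.55 and 6.88 FPKM in control and 5.03, 5.27 and 5.37 FPKM in siEzh2 samples. The groups did not overlap. Npr3 fell 1.38 times (log2 fold change −0.40, SE 0.0445, adjusted p = 0.000928). Npr2 (ENSMUSG00000028469, chromosome 4 from 43631935 to 43651244, plus strand), the guanylyl cyclase that responds to C-type natriuretic peptide, had 25.8 FPKM in each control sample and 23.5 FPKM in each siEzh2 sample. Its fall of 1.10 times was small and passed the test (log2 fold change −0.13, SE 0.0299, adjusted p = 0.0144). Antisense genes cover 3.42% of the exon bases of Npr3 and 5.70% of those of Npr2. The log2 ratio of Npr3 to Npr2 was −1.71 ± 0.0582 in control and −1.98 ± 0.0420 in siEzh2 samples. The difference of −0.27 had p = 0.1 in the exact two-sided permutation test, the smallest possible, and Benjamini-Hochberg adjustment over the 2 receptor pairs leaves both at 0.1.

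In the natriuretic peptide list 1 of 7 tested genes was higher and 4 lower, at a median log2 fold change of −0.13. Without siEzh2 sample 1, 2 were higher, Nppb being the added one. Nppb passed the filter there only through the siEzh2 samples, so by passing it had to differ between groups. The cyclic GMP-dependent kinases went opposite ways. Prkg1, which relaxes smooth muscle, fell 1.65 times from 4.39 ± 0.154 to 2.66 ± 0.0367 FPKM (adjusted p = 0.000137). Prkg2 rose 1.65 times from 17.2 ± 0.419 to 28.4 ± 1.35 FPKM (adjusted p = 0.000146). Of the ligands, C-type natriuretic peptide (Nppc) had 3 reads over the control and 4 over the siEzh2 samples, and brain natriuretic peptide (Nppb) 9 and 39.

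Adrenomedullin was the most abundant of the 10 transcripts and had the largest fall among those tested. Adm (ENSMUSG00000030790, chromosome 7 from 110627661 to 110629820, plus strand) had 365, 374 and 358 FPKM in control and 215, 230 and 226 FPKM in siEzh2 samples. Every siEzh2 sample lay well below every control sample. The mean fell 1.64 times, from 366 ± 8.25 to 224 ± 8.09 FPKM (log2 fold change −0.71, SE 0.0412, adjusted p = 0.000102), on 5587 to 11373 reads a sample. In the list of adrenomedullin and CGRP genes 5 of 10 tested were higher and 4 lower, at a median log2 fold change of 0.15.

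Of the adrenomedullin receptor genes Calcrl, Ackr3 and Ramp3 rose and Gpr182 fell. Calcrl, the receptor itself, rose 1.38 times from 15.5 ± 0.600 to 21.4 ± 0.259 FPKM (adjusted p = 0.000402). Ackr3, which scavenges adrenomedullin and a chemokine, rose 1.28 times (adjusted p = 0.0108). Calcrl needs a partner protein for its ligand choice, and these partners were picked after their values were seen. Ramp3 rose 2.58 times from 0.796 ± 0.0709 to 2.06 ± 0.327 FPKM (adjusted p = 0.000738) and passed the filter only through the siEzh2 samples, with 7.32% of its exon bases antisense to another gene. Ramp2 had 1.37 ± 0.0570 and 1.09 ± 0.136 FPKM (adjusted p = 0.0359), with 33.4% of its exon bases in Vps25, and lost its call without any 1 sample but siEzh2 sample 3 (adjusted p = 0.0670 to 0.103). The Ramp2 call was also lost with no filter (adjusted p = 0.0750), the 0.1 FPKM filter (0.0648), trend and robust estimation (0.0930), the replicate block (0.0739) and both limma-voom fits (0.113 and 0.120). Ramp1 stayed under 1 FPKM in every sample. Pam, which amidates adrenomedullin and other peptides to their active form, fell 1.24 times from 76.4 ± 0.266 to 61.5 ± 0.865 FPKM. Gpr182, a scavenging receptor once assigned to adrenomedullin, fell 2.76 times from 2.31 ± 0.372 to 0.837 ± 0.0540 FPKM and passed the filter only through the control samples.

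Npy had the largest fold change of the 10 genes on the log2 scale used, although the ratio of FPKM was larger for Ednrb. Npy (ENSMUSG00000029819, chromosome 6 from 49822710 to 49829507, plus strand) had 8.42, 6.87 and 5.61 FPKM in control and 16.5, 17.3 and 24.4 FPKM in siEzh2 samples. The groups were apart, and siEzh2 sample 3 was the highest. The mean rose 2.78 times, from 6.97 ± 1.40 to 19.4 ± 4.34 FPKM. The log2 fold change was 1.35 (SE 0.182, adjusted p = 0.0018) and 1.18 without siEzh2 sample 3 (adjusted p = 0.00396). With 566 exon bases the gene is short, so these values rest on 59 to 240 reads a sample. In the neuropeptide Y list 3 of 10 matched genes were tested, of which Npy was higher and Fap, a protease that trims the peptide, was lower (log2 fold change −0.16, adjusted p = 0.0146). Without control sample 3 the call of Fap was lost (adjusted p = 0.0512). Cpe, a carboxypeptidase of peptide hormone maturation, was abundant in both groups, with 907 ± 27.3 and 887 ± 23.6 FPKM (adjusted p = 0.545). The matched receptors Npy1r, Npy4r, Npy5r and Npy6r were under 1 FPKM in every sample.

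Neuropeptide Y is typical of sympathetic neurons. Of 11 neuronal, sympathetic and chromaffin markers 9 were under 1 FPKM in every sample. The defining enzyme Th was listed at 0 in control sample 1 and siEzh2 samples 2 and 3, and its highest value was 0.158 FPKM, in control sample 2. The summed level of the list was 63.7 to 67.0 FPKM in control and 75.7 to 76.7 in siEzh2 samples, most of it from Tubb3 and Uchl1. Stmn2 (0.122 ± 0.0391 and 0.475 ± 0.0997 FPKM, 38 and 135 reads) and Snap25 (0.0558 ± 0.0295 and 0.165 ± 0.00808 FPKM, 21 and 57 reads) were below the filter and higher in every siEzh2 than in every control sample. Uchl1 rose 1.52 times, and an antisense gene covers 18.1% of its exon bases. Single markers of the list went both ways. Control and siEzh2 samples held 10 and 1 reads of Th, 19 and 7 of Chgb, 106 and 81 of Slc18a2 and 55 and 34 of Syt1. The groups overlapped in each of these genes, and Tubb3 was not called (adjusted p = 0.627). The part of these markers in the rise of Npy was not tested.

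**Figure D3:**
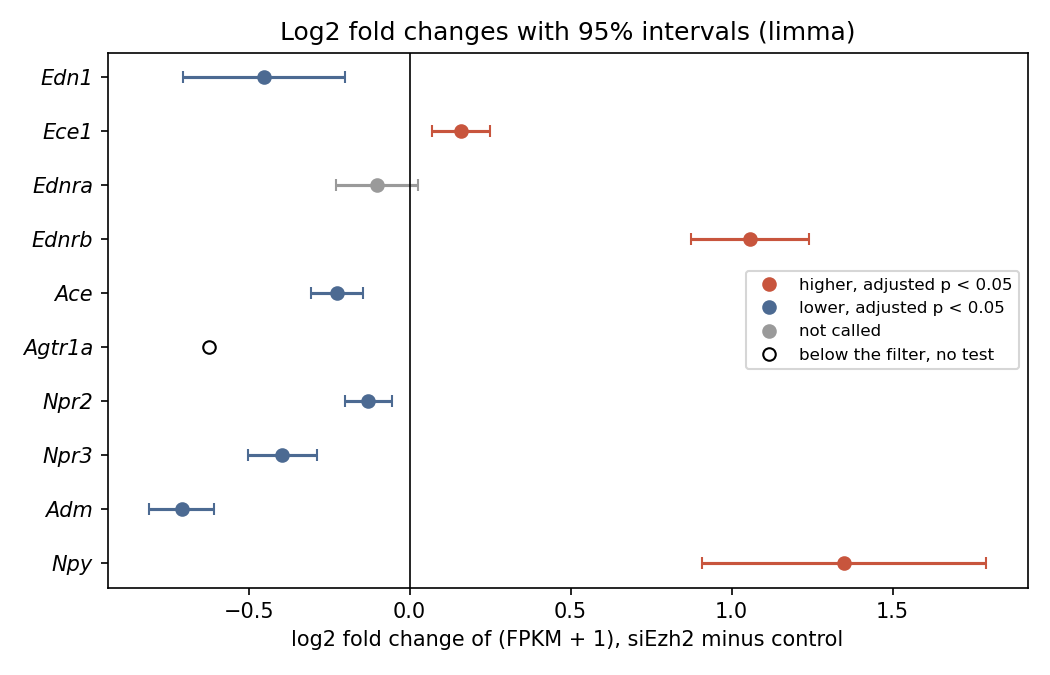
Log2 fold change of FPKM + 1, siEzh2 minus control, on the x axis, with 95% intervals from limma (n = 3 a group). Agtr1a, as an open circle, was below the filter and has no interval. The points of Npy (1.35) and Ednrb (1.06) lie farthest right and that of Adm (−0.71) farthest left.

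Other genes of vasoactive signalling also changed in both directions. Among other vasoactive peptides and receptors 2 of 7 tested genes were higher and 3 lower, at a median log2 fold change of 0.07. Of these 5 calls, both higher ones (Kng1 and Bdkrb2) passed the filter only through siEzh2 samples and that of Avpr1a only through control samples. With the filter blind to group 2 of the list were also higher and 3 lower. Apln, the dilator apelin, fell from 9.01 ± 0.210 to 2.79 ± 0.374 FPKM. Adcyap1r1, the receptor of the dilator PACAP, fell 1.54 times from 196 ± 2.74 to 127 ± 2.65 FPKM (adjusted p = 9.29e-05). Kng1, the kinin precursor, rose from 0.746 ± 0.0928 to 2.37 ± 0.448 FPKM, which is uncertain because of its near-identical copy Kng2.

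Among G protein and second messenger genes below these receptors 5 of 36 tested were higher (3 without control sample 3 or siEzh2 sample 3) and 10 lower, at a median of −0.05. Gnaq and Gna11, the G proteins that carry constrictor signals of the endothelin and angiotensin receptors and named after their values were seen, fell 1.12 and 1.27 times. Plcb4, a phospholipase they activate, fell 1.71 times from 6.25 ± 0.282 to 3.66 ± 0.234 FPKM (adjusted p = 0.000284). Adcy5, an adenylyl cyclase, fell 2.26 times from 7.65 ± 0.187 to 3.38 ± 0.139 FPKM (adjusted p = 4.02e-05). Gnai3, of the inhibitory G proteins, rose 1.29 times. Over all 7 lists 66 genes outside the 10 were tested, of which 16 were higher, 20 lower and 30 not called. That is 24.2% higher and 30.3% lower, where 24.1% of all tested genes were higher and 22.7% lower. The share that was higher is thus about that of all tested genes.

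**Figure D4:**
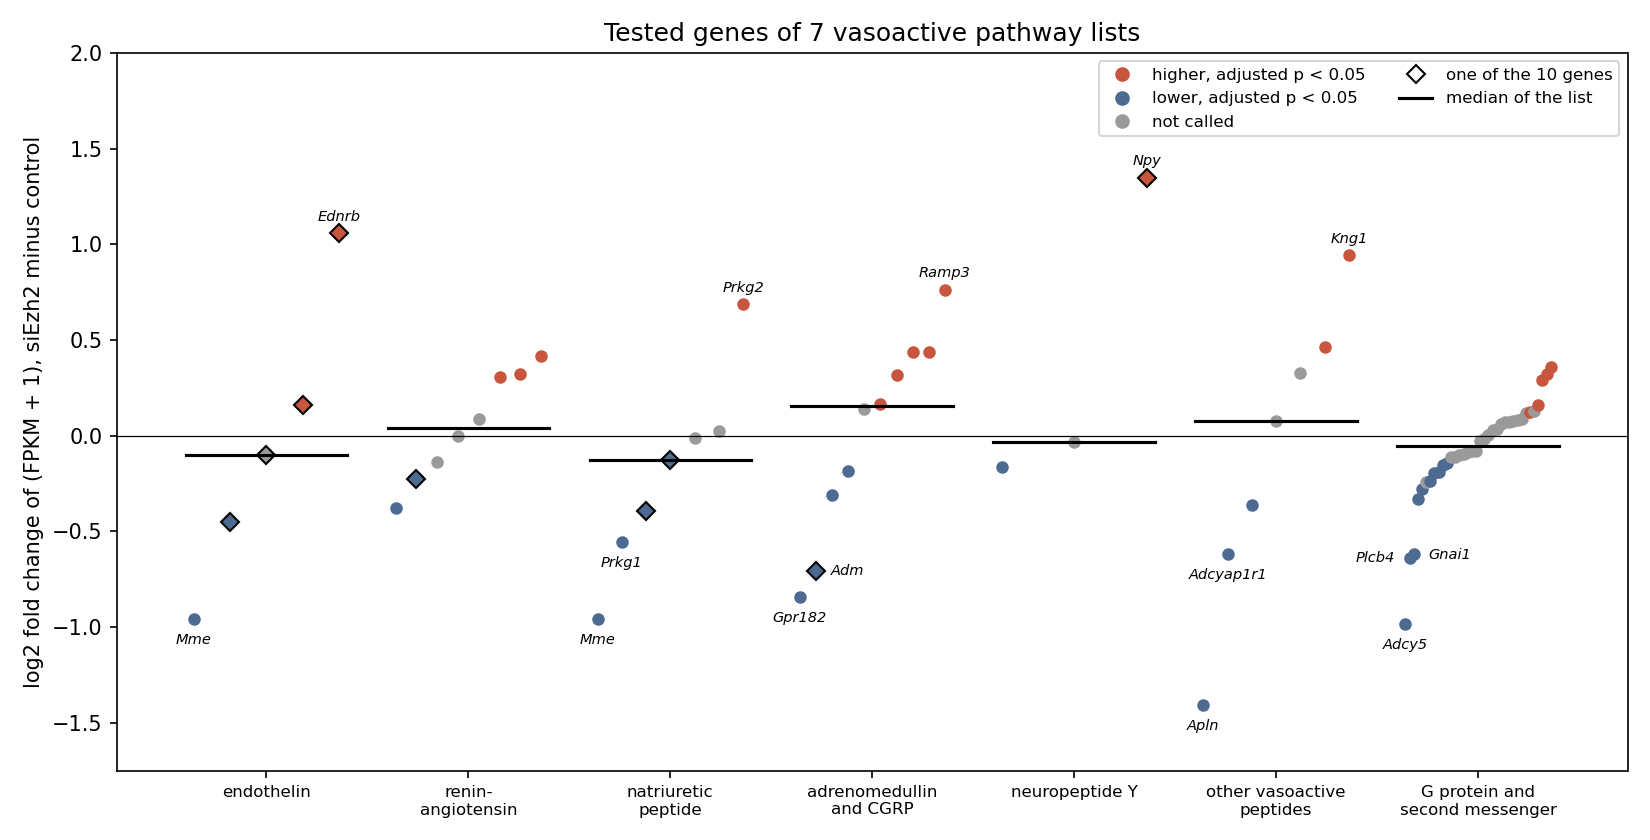
Log2 fold change of FPKM + 1, siEzh2 minus control, of every tested gene of the 7 lists, ordered within each list. Diamonds are the 10 genes (of the 9 tested), circles other genes, colours the call and horizontal lines the median of each list. Ednrb and Npy are the highest points of their lists, and Adm lies second from the bottom of its list, above Gpr182.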

How the data were processed

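RNA of 6 samples was sequenced from stranded mRNA libraries, per the labels' protocols. The deposited values are FPKM per gene, per the file headers, and not counts, so the test set for normalized values was used. Tools named in the submitters' processing notes are HISAT2, HTSeq, Trimmomatic and Cufflinks, with the build mm10. Their versions and the strand setting are not stated in the sources used. After a filter of 1 FPKM (mean of either group), log2(FPKM + 1) was fitted in R 4.3.3 with limma 3.58.1, without covariates, trend or robust estimation. Benjamini-Hochberg adjustment covered every gene tested, and calls were made at 0.05. Tables and exact tests used Python 3.11.15 with pandas 2.3.3 and numpy 2.4.6.

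Reads were recovered from steps of FPKM times GENCODE M21 exon length (27434 genes), 98.4% to 98.5% of values under 1000 reads being whole within 0.02. A count of 0 allows up to 3 reads (0.160 to 0.187 CPM), for counting error only. Simulated data of this comparison had 11596 genes tested and 50 changed at each size. The test called 78% of genes changed 1.3 times, 96% at 1.5 times and 100% at 2 and 3 times, and 8 of 195 calls were false. All changed genes lay above 2 FPKM in control, and every gene had the same spread beyond counting (dispersion 0.000702). These rates do not carry over to lower or more variable genes, such as Ednrb, Agtr1a and Npy. Few genes were changed in the simulation, where 46.9% were called in the data. No sample was a copy of another (chi-square per degree of freedom 2.14 to 3.29 within groups).

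The 10 genes, the 7 pathway and 10 marker lists and the tests were chosen with earlier results of these data known. Outside the 10 genes, the text names the 3 smallest p-values of each list, ligands and receptors of the 10 genes at 5 FPKM or more, and markers listed first or called with a fold over 2. Other genes (Agtr1b, Agtr2, Ren1, Edn2, Nppb, Nppc, Ramp1, Ramp2, Ramp3, Npy receptors, Gnaq, Gna11, Bdkrb2, Avpr1a, Myh11, Tagln, S100b, Kdr, Emcn, Vwf, Tek, Cdh5, Tubb3, Uchl1, Stmn2, Snap25) were chosen after their values were seen. So were Chgb, Slc18a2, Syt1, Cd68, Cd14, Gnai1 and Gnai2. Results of marker lists without a paragraph of their own stand in the closing section. Alternatives were other scalings, filters and pseudocounts, trend with robust estimation, limma-voom on those reads, a replicate block and leaving out each sample. The filter blind to group and limma-voom with at least 10 reads over all samples were chosen after seeing the data.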

Additional observations from a re-analysis of the deposited data

How the results depend on the processing

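The calls of the 9 tested genes (3 higher, 5 lower, Ednra not called) and their directions held in all 16 alternative fits. Agtr1a was tested in 6 of them and called lower in each. In 2 of these fits, without control sample 1 and without control sample 2, it passed the filter only through the control samples. By passing there it had to differ between groups. The filter blind to group was also passed through the control values of Agtr1a. With at least 10 reads over all samples limma-voom put Agtr1a at −1.89 in place of −0.62, a scale without the added 1 FPKM. Leaving out 1 sample gave Ednrb 0.998 to 1.13, Npy 1.18 to 1.48 and Adm −0.73 to −0.68. The largest adjusted p of a called gene was 0.0491, for Npr2 with the replicate block. That block left the counts over all genes at 2564 higher and 2385 lower (2866 and 2695 without it) and changed no call of the 10. Replicate numbers are not said to pair samples, although each sample correlated best with its own number (r 0.0243 to 0.0695). Agtr1b, not called in any fit, turned from −0.0015 to 0.0020 with a pseudocount of 0.1, to 0.0073 in both limma-voom fits and to between −0.092 and 0.10 without 1 sample. With limma-voom and 10 reads, 8 G protein and second messenger genes were higher in place of 5 and 2 neuropeptide Y genes lower in place of 1. Depth limits Ednrb in control samples, which rests on 3 to 10 reads a sample.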

Other observations

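Brain natriuretic peptide (Nppb), a ligand of the cyclic GMP receptors, had 0.0701, 0.409 and 0.138 FPKM in control and 0.318, 1.24 and 1.32 FPKM in siEzh2 samples, and was below the filter. The groups overlapped, and the values rest on 9 reads over the control and 39 over the siEzh2 samples. Npy4r, a receptor of pancreatic polypeptide and neuropeptide Y, had 96 reads over the control and 34 over the siEzh2 samples, and its groups did not overlap. Agtr2, the type 2 angiotensin receptor, had 0.708 to 0.753 FPKM in control and 0.753 to 1.02 FPKM in siEzh2 samples. None of these passed the filter.

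Npr2 varied less between samples of a group than counting reads alone would give. Its coefficient of variation was 0.0505% in control and 0.186% in siEzh2 samples, where 2231 and 1868 reads a sample would give 2.12% and 2.31%. The fit across all genes borrows its spread from other genes, so the SE of Npr2 does not rest on these values alone. Npy varied more, with 20.1% and 22.4% against 11.7% and 7.31% from counting.

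Markers of other cell types moved both ways, and their part in the results was not tested. Of 6 tested smooth muscle markers 5 were lower and 0 higher, with a summed level of 719 to 748 FPKM in control and 544 to 581 in siEzh2 samples. Fibroblast and adventitial markers had 1 higher (Pdgfra, 1.31 times) and 4 lower of 9 tested, with Dpt 2.42 and Lum 2.51 times lower. Macrophage and leukocyte markers had 2 higher (Cd68 1.20 and Cd14 1.29 times) and 2 lower of 4. Csf1r was 3.24 and Lyz2 (which has the near copy Lyz1) 2.35 times lower, and Ptprc was under 0.01 FPKM in every sample. Csf1r passed the filter only through the control samples, so by passing it had to differ between groups. An antisense gene covers 15.1% of the exon bases of Csf1r. Adipocyte markers had 5 lower and 0 higher of 7, with Adipoq 1.19 times lower. Pericyte markers had 1 higher and 1 lower of 4, and Kcnj8 was 0.684 ± 0.114 and 0.756 ± 0.169 FPKM. Mesothelial and epithelial markers had 1 higher of 2, Krt19, at 2.43 times its control mean, while Msln was not called (adjusted p = 0.0625). For endothelium the counts were 1 higher and 1 lower of 2, for neuronal markers 1 higher of 2, for Schwann and glial markers 1 lower of 2, and none of 4 matched megakaryocyte markers was tested.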
